A study of Mus musculus with 12 samples.

Results

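The cytokine genes described here were Il2, Il9, Il10, Ifng, Il4, Tnf, Lta, Ltb, and Csf2, 9 genes that encode T cell cytokines other than those of the IL17 family. They were chosen by name, and their values were read from a Th17 versus Th0 table of 11077 genes and an iTreg versus Th0 table of 11056 genes. The first lists 5 of the 9 genes (Il2, Il10, Tnf, Lta, and Ltb) and the second lists 7 (Il2, Il9, Ifng, Tnf, Lta, Ltb, and Csf2), so that 8 are in at least 1 table. The others had not passed the authors' filter, which asked for more than 1 CPM (counts scaled to library size) in at least 4 samples. RNA had been sequenced from 12 mouse T cell cultures, 4 each of Th0, Th17, and iTreg cells. Naive CD4+CD62L+ T cells from spleens of C57BL/6 mice aged 8 to 10 weeks were activated for 3 d in all groups with plate-bound anti-CD3 and anti-CD28, each at 1 µg/ml. Th0 cells received nothing further. Th17 cells were given 30 ng/ml IL6, 5 ng/ml TGFb1, and neutralizing antibodies to IL4 and IFNg at 10 µg/ml each, with no IL2 added. iTreg cells were given 10 ng/ml IL2 and, by the labels, 10 ng/ml TGFb1, for which the methods state another dose. Both polarized groups were compared with the same Th0 cultures.

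Cytokines are secreted or membrane-bound proteins through which a T cell acts on itself and on its neighbours. IL2 is the growth factor that activated T cells make early after contact with antigen, while IFNg and IL4 are the hallmark products of Th1 and Th2 cells. IL9 acts on mast cells and epithelia, IL10 dampens inflammation, and GM-CSF, the product of Csf2, acts on myeloid cells. TNF, lymphotoxin alpha (Lta), and lymphotoxin beta (Ltb) belong to the TNF superfamily, and lymphotoxin alpha is secreted alone or held at the membrane together with lymphotoxin beta.

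The column headings begin with M22, M29, M42, or M43 and name the group by their ending, and libraries are called here by these beginnings. Values are FPKM, in which sequenced fragments are divided by transcript length and library size, and differences are tested on log2(FPKM + 1) with their standard error (SE). Depth is given here as the library size used in the FPKM scaling. It was 0.843 to 1.05 times that of the median library in the Th0 libraries of the Th17 table. In the Th17 libraries it was 0.918 to 1.08 times. In the iTreg table these ranges were 0.825 to 1.03 and 0.974 to 1.19. Il17f was at 281 to 788 FPKM in Th17 libraries and at 0.0909 to 0.184 FPKM in Th0 libraries. Foxp3 was at 62.0 to 91.8 FPKM in iTreg libraries and at 2.01 to 7.15 FPKM in Th0 libraries. The Th17 library M43 stood apart with 42.5 FPKM of Foxp3, against 0.499, 0.502, and 4.50 FPKM in the other Th17 libraries. The calls of the cytokine genes are also given without it, while the sets of other genes described below include it. All 8 CD4 T cell markers were listed, with summed levels of 1150 to 2500 FPKM over both groups of the Th17 table and 1250 to 2480 FPKM over those of the iTreg table. Cd4 itself fell from 208 ± 89.6 to 68.1 ± 24.5 FPKM in Th17 cells (SD, n = 4, log2 fold change -1.54, adjusted p = 0.038, limma), and no other of these markers was called there without the block, with which 3 fell and 0 rose. In iTreg cells 1 rose and 0 fell, and 2 rose and 5 fell with the block. The part of these markers in the results was not tested. Of the B cell, CD8 T cell, and NK cell markers, 1 each was listed (Cd79a, Cd8b1, and Nkg7), and Cd79a did not exceed 3.84 FPKM in any library. Cd8b1 was at 2.19 to 6.60 FPKM over all groups. The myeloid marker Itgam was listed in the Th17 table alone and did not exceed 0.628 FPKM. Nkg7, which activated T cells also express, was at 6.58 to 58.8 FPKM in Th0 libraries, 0.301 to 3.28 FPKM in Th17 libraries, and 25.1 to 53.5 FPKM in iTreg libraries. Its part, too, was not tested.

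The regions upstream of the genes on which the results turn are shown first, since activation of cytokine genes is known to run through short motifs there. A stretch of 250 bases before the RefSeq start (GRCm38.p6) was available for 8 of the 9 genes, all but Il10. Capitals mark matches on either strand to the NFAT core GGAAA, to TGANTCA, which is bound by AP-1, and to TTCNNNGAA, which is bound by STAT proteins. Il2 lies at chr3:37125955-37126204, Il9 at chr13:56482258-56482507, Lta at chr17:35205352-35205601, and Tnf at chr17:35202008-35202257, all on the minus strand. Il2 and Lta are shown because both moved in at least 1 comparison, Il9 as the gene with the widest difference in iTreg cells, and Tnf as the neighbour of Lta that did not move with it.
Il2: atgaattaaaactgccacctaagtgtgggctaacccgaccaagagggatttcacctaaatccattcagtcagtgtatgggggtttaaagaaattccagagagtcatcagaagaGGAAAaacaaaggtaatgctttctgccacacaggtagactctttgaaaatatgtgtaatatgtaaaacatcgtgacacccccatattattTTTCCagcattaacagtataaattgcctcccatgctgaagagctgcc
Il9: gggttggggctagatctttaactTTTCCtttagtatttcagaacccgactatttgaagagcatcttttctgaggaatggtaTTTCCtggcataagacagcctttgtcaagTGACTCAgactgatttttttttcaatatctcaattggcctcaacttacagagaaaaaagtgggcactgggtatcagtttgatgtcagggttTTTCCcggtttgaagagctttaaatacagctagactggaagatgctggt
Lta: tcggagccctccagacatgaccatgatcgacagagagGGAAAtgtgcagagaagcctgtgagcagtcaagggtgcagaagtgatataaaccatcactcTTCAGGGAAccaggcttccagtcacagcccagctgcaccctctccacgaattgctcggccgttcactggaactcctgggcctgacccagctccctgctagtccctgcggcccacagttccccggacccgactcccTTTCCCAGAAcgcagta
Tnf: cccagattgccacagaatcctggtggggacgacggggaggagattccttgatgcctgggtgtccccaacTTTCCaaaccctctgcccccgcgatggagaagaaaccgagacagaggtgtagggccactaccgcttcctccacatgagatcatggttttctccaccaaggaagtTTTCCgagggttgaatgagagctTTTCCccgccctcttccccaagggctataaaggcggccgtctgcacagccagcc
The NFAT core was found upstream of all 8 genes (for Il4, at 1 of its 2 starts) and is also in 55.6% of 32851 such regions of the genome. The AP-1 letters were found upstream of Il9 only, 140 bases before its start, and are in 6.75% of all regions. The STAT letters were found upstream of Lta (152 and 16 bases before the start, the second overlapping an NFAT core), Ltb, and Ifng, and are in 7.02% of all regions. These matches are letters in a window and no binding was measured.

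Il2 mRNA was lower in both polarized cell types than in Th0 cells. In the Th17 table, Il2 was at 34.3, 19.0, 42.7, and 56.3 FPKM in the Th0 libraries M22, M29, M42, and M43, and at 3.37, 5.82, 3.38, and 3.64 FPKM in the Th17 libraries in the same order. The highest Th17 library, M29, lay below the lowest Th0 library, which was also M29. The means were 38.1 ± 15.6 FPKM in Th0 and 4.05 ± 1.18 FPKM in Th17 cells (SD, n = 4), which is 9.40-fold lower. On the log2(FPKM + 1) scale this was a fold change of -2.88 (SE 0.31, adjusted p = 3.0e-04, limma). Between libraries with the same beginning the fall was 3.26-fold for M29 and 10.2- to 15.5-fold for the other 3. In the iTreg table, the Th0 libraries had 33.9, 18.8, 42.2, and 55.6 FPKM of Il2 and the iTreg libraries 1.26, 1.50, 3.40, and 3.54 FPKM. Here too the groups did not overlap. The iTreg mean of 2.43 ± 1.21 FPKM (SD, n = 4) was 15.5-fold below the Th0 mean of 37.6 ± 15.4 FPKM, or -3.47 on the log2 scale (SE 0.35, adjusted p = 3.5e-04, limma). The IL2 protein was added to iTreg cultures and not to Th17 or Th0 cultures. The FPKM values are whole multiples of a step, from which the fragments behind them can be read as the smallest whole numbers in ratio. Il2 rested on 141 to 497 fragments in Th0 libraries, 26 to 53 in Th17 libraries, and 13 to 30 in iTreg libraries. As these are bulk cultures, fewer cells that make a transcript and less of it per cell cannot be told apart, here or for the other genes.

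Il10 was listed in the Th17 table alone and was higher in Th17 cells. Its FPKM in the Th0 libraries M22, M29, M42, and M43 was 0.613, 3.71, 0.248, and 0.164, and in the Th17 libraries 36.3, 26.1, 30.9, and 16.1. No Th0 library reached the lowest Th17 library, and the Th0 library M29 stood above the other Th0 libraries. The means were 27.3 ± 8.60 FPKM in Th17 and 1.18 ± 1.69 FPKM in Th0 cells (SD, n = 4), a ratio of 23.1 that became 80.0 without the Th0 library M29. On the log2 scale the difference was 3.90 (SE 0.44, adjusted p = 4.3e-04, limma). The Th0 values rested on 6, 38, 3, and 2 fragments. The ratio was 59.2 for M22 (95% counting interval 27.0 to 162), 7.04 for M29 (5.02 to 10.1), 125 for M42 (42.3 to 607), and 98.0 for M43 (26.8 to 815). These exact binomial intervals cover counting error only. Il10 passed the filter on low values through its Th17 libraries and the Th0 library M29. In the Th17 library M43, the library with high Foxp3, Il10 was lowest, and without that library its log2 fold change was 4.13 (adjusted p = 1.0e-03, limma).

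Il9 was listed in the iTreg table alone, where it had the widest difference of these genes. It was listed at 0 in the Th0 libraries M22, M29, and M42 and at 0.790 FPKM, or 4 fragments, in the Th0 library M43. The iTreg libraries held 46.0, 13.97, 66.6, and 74.6 FPKM, or 269, 74, 322, and 358 fragments. Every iTreg library was far above every Th0 library, and M29 was the lowest of the iTreg libraries. Against the FPKM that 3 fragments would give in the Th0 library, Il9 was at least 62.3-fold higher in M22, at least 19.8-fold in M29, and at least 111-fold in M42. In M43 the ratio was 94.5 (95% counting interval 36.6 to 349). The mean was 50.3 ± 27.1 FPKM in iTreg cells (SD, n = 4), which gave a log2 difference of 5.23 (SE 0.48, adjusted p = 2.2e-04, limma), which depends on the pseudocount as the Th0 values are near 0. Il9 passed the filter only through its iTreg libraries.

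Lta, Tnf, and Ltb lie side by side on chromosome 17 of GRCm38 (mm10), in that order within the annotation of GENCODE. Lta spans 35203165 to 35205351 and Tnf 35199381 to 35202007, both on the minus strand and 1157 bases apart. Ltb, on the plus strand from 35194439 to 35196320, is separated from Tnf by 3060 bases. No exonic base of the 3 genes is shared with another gene. They changed differently in iTreg cells, in which Lta passed the test with and without a block and the others passed neither with all libraries in place.

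Lta was at 50.5, 27.9, 39.0, and 84.8 FPKM in the Th0 libraries of the iTreg table and at 342, 213, 257, and 347 FPKM in the iTreg libraries. Each iTreg library exceeded each Th0 library, and M29 was lowest and M43 highest in both groups. The mean of 290 ± 65.7 FPKM in iTreg cells was 5.73-fold that of 50.5 ± 24.6 FPKM in Th0 cells (SD, n = 4), a log2 difference of 2.58 (SE 0.32, adjusted p = 9.4e-04, limma). Between libraries with the same beginning the rise was 4.09-fold for M43 and 6.60- to 7.62-fold for the others. Lta was then at a higher level per length than 98.4% of the genes listed. In the Th17 table, Lta was at 51.1, 28.2, 39.5, and 85.8 FPKM in Th0 and 50.1, 29.2, 24.0, and 57.3 FPKM in Th17 libraries. The groups overlapped, and a log2 fold change of -0.31 had a 95% interval from -1.16 to 0.54 (adjusted p = 0.61, limma). The libraries M22 and M29 had nearly the same Lta in Th0 and Th17 cells, while M42 and M43 had less in Th17 cells.

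Tnf was at 19.9, 44.3, 40.1, and 24.8 FPKM in the Th0 libraries of the Th17 table and at 13.6, 24.7, 23.3, and 17.9 FPKM in the Th17 libraries. Each Th17 library was below the Th0 library with the same beginning, by 1.39- to 1.79-fold, yet the groups overlapped. Its log2 fold change of -0.63 did not pass the test that ignores the beginnings (SE 0.28, adjusted p = 0.16, limma) and passed with the beginnings as a block (SE 0.096, adjusted p = 0.0032, limma). In the iTreg table, Tnf was at 19.6, 43.9, 39.6, and 24.5 FPKM in Th0 and 25.1, 43.3, 43.7, and 30.2 FPKM in iTreg libraries. A log2 fold change of 0.19 had a 95% interval from -0.46 to 0.83 (adjusted p = 0.72 without and 0.11 with the block, limma). With M29 left out of both groups, the block gave 0.26 (adjusted p = 0.048, limma). In every group Tnf was higher in the libraries M29 and M42 than in M22 and M43.

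Ltb had the highest mean of these genes in Th0 cells, with 165, 172, 85.6, and 172 FPKM in the Th0 libraries of the Th17 table. The Th17 libraries held 108, 85.9, 26.7, and 113 FPKM. Each was lower than the Th0 library with the same beginning, by 1.52- to 3.21-fold, and M42 was lowest in both groups. Ltb, too, did not pass without the block (log2 fold change -0.96, SE 0.45, adjusted p = 0.18, limma) and passed with it (SE 0.18, adjusted p = 0.0075, limma). With both libraries of a beginning left out in turn, the block gave adjusted p of 0.0092 to 0.025 for Ltb and 0.0082 to 0.017 for Tnf (limma). In the iTreg table, Ltb was at 163, 171, 84.6, and 169 FPKM in Th0 and 138, 177, 56.6, and 120 FPKM in iTreg libraries. Its log2 fold change there was -0.31 with a 95% interval from -1.14 to 0.51 (adjusted p = 0.63 without and 0.064 with the block, limma), and with the block and without M29 in both groups it was -0.43 (adjusted p = 0.014, limma). The library M42 was again the lowest of both groups.

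**Figure D1:**
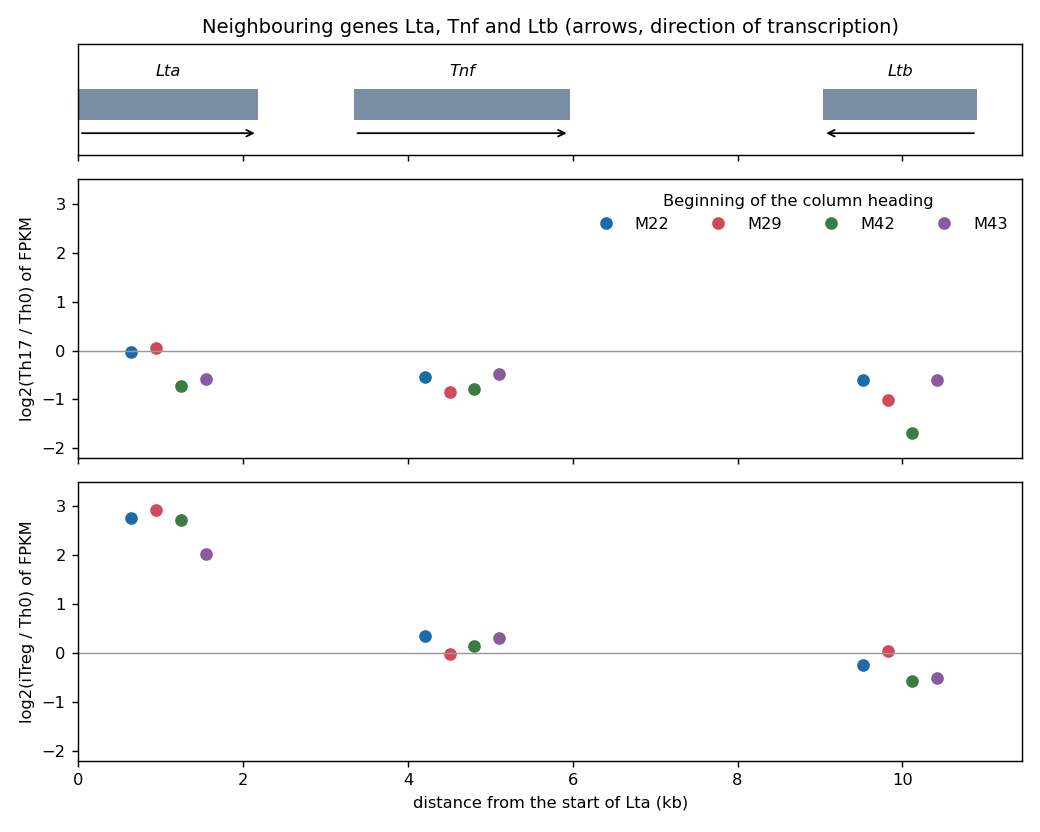
Lta, Tnf, and Ltb drawn to scale by distance from the start of Lta in kb (top), with the log2 ratio of FPKM to the Th0 library with the same beginning for Th17 (middle) and iTreg (bottom) libraries. Each point is 1 pair of libraries, spread sideways for legibility. The 4 iTreg ratios of Lta lie between 2.03 and 2.93, while those of Tnf and Ltb lie between -0.58 and 0.35.

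The genes of IFNg and IL4, the hallmark products of Th1 and Th2 cells, were at low levels or not listed. Ifng, which makes IFNg, was at 0.874, 0.523, 0.796, and 2.28 FPKM in the Th0 libraries of the iTreg table, on 8, 5, 9, and 26 fragments. The iTreg libraries had 0.835, 2.60, 0.368, and 0.833 FPKM, on 11, 31, 4, and 9 fragments. The groups overlapped, with means of 1.12 ± 0.789 and 1.16 ± 0.985 FPKM (SD, n = 4). Libraries with the same beginning went in opposite directions, from 4.97-fold higher in iTreg cells for M29 (95% counting interval 1.92 to 16.4) to 2.74-fold lower for M43. Ifng did not reach the level required for testing. When tested without the filter, its log2 fold change was -0.0056 (adjusted p = 0.99, limma). Of its 1295 exonic bases, 336 are shared with Gm49751, and the counting did not use the strand. Il4, the gene of the Th2 cytokine, is in neither table and its level was not analysed here. Ifng was not listed in the Th17 table, where both cytokines had been blocked by antibodies in the polarized cultures.

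Csf2 was likewise low and listed in the iTreg table alone. Its level was 3.07, 0.611, 1.55, and 1.74 FPKM in the Th0 libraries and 0.798, 1.08, 1.93, and 2.49 FPKM in the iTreg libraries. For M22 the iTreg value was 3.84-fold lower than the Th0 value, while for the other 3 beginnings it was 1.25- to 1.76-fold higher, with 5 to 24 fragments behind each value. The log2 fold change of -0.07 had a 95% interval from -0.75 to 0.62 (adjusted p = 0.92, limma) and turned to 0.15 without the Th0 library M22. With the block and without M22 in both groups it was 0.31 (adjusted p = 0.0495, limma). Of the 800 exonic bases of Csf2, 96 are shared with Gm12223.

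**Figure D2:**
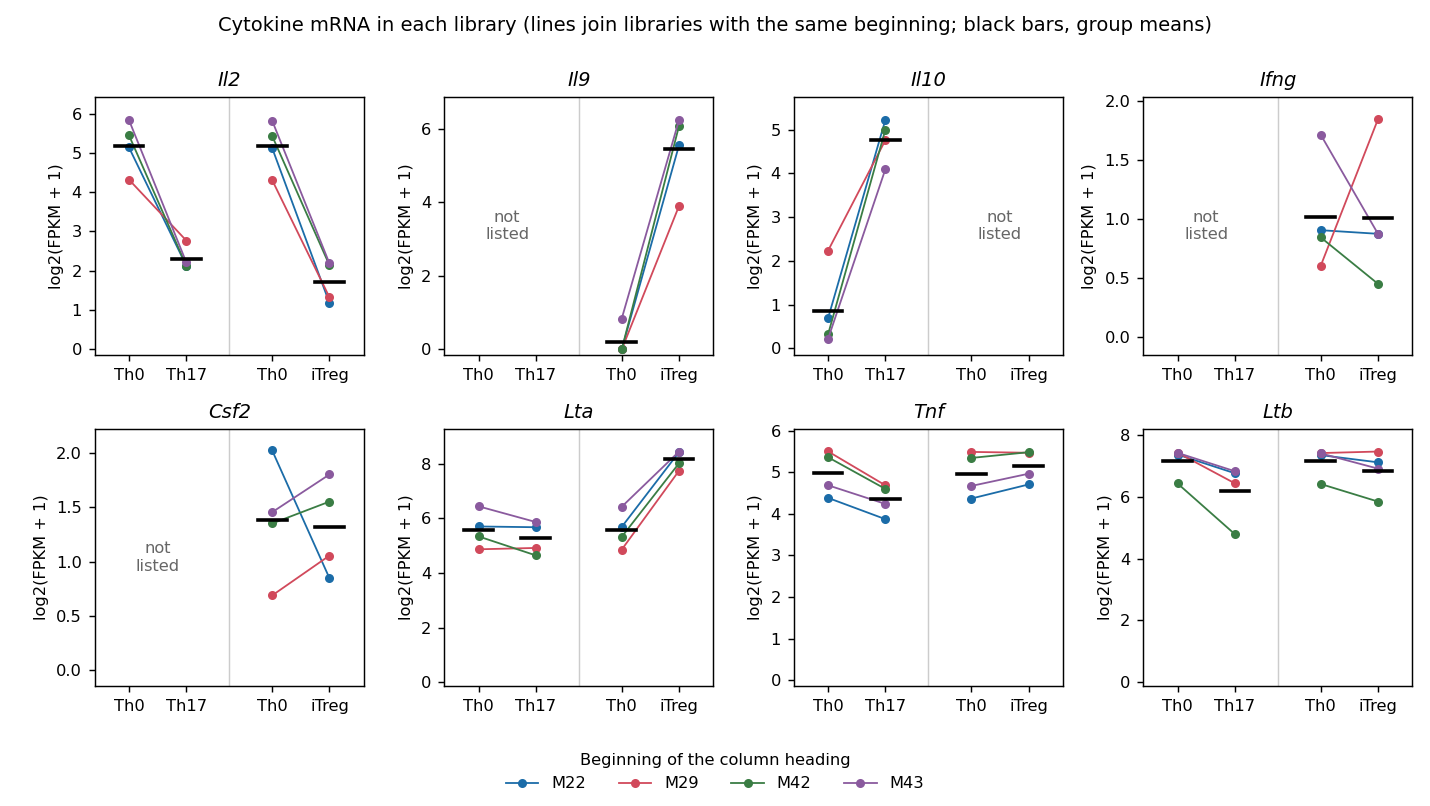
log2(FPKM + 1) of the 8 listed cytokine genes in each library, with Th0 and Th17 libraries of the first table to the left and Th0 and iTreg libraries of the second to the right of the grey line. Points are libraries, lines join those with the same heading beginning, and black bars are group means. All 4 lines of Il2 fall in both tables and all 4 of Il10, Il9, and of Lta in iTreg cells rise.

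Of the 5 genes tested in the Th17 comparison, Il10 was up-regulated and Il2 down-regulated in the fit that ignores the beginnings. Among all 10269 genes tested, 10.6% were up-regulated and 8.69% down-regulated. With the beginnings as a block, the fit that follows a paired design as the authors used, Tnf and Ltb were also down-regulated. The background was then 19.2% raised and 18.6% lowered. The groups did not overlap for Il2 and Il10, as for 23.8% of the genes tested. Without the Th17 library M43, Il2 (-2.85, adjusted p = 0.0015, limma) and Il10 stayed past the threshold, while Tnf, Lta, and Ltb stayed short of it in the fit without the block. Of the 6 genes tested in the iTreg comparison, Il9 and Lta were up-regulated and Il2 down-regulated, against 8.36% and 8.21% of the 10208 genes tested. With the block the same 3 genes were called, while 20.9% and 20.0% of all genes were raised and lowered. The groups did not overlap for these 3 genes, as for 22.8% of the genes tested. Il9 and Il10 entered the test through the group in which they were high, so that the counts do not measure how often cytokine genes changed. In exact two-sided permutation tests of single genes, the called differences reached p = 0.029, the smallest that 4 against 4 libraries allow, and Tnf and Ltb in Th17 cells had p = 0.11.

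**Figure D3:**
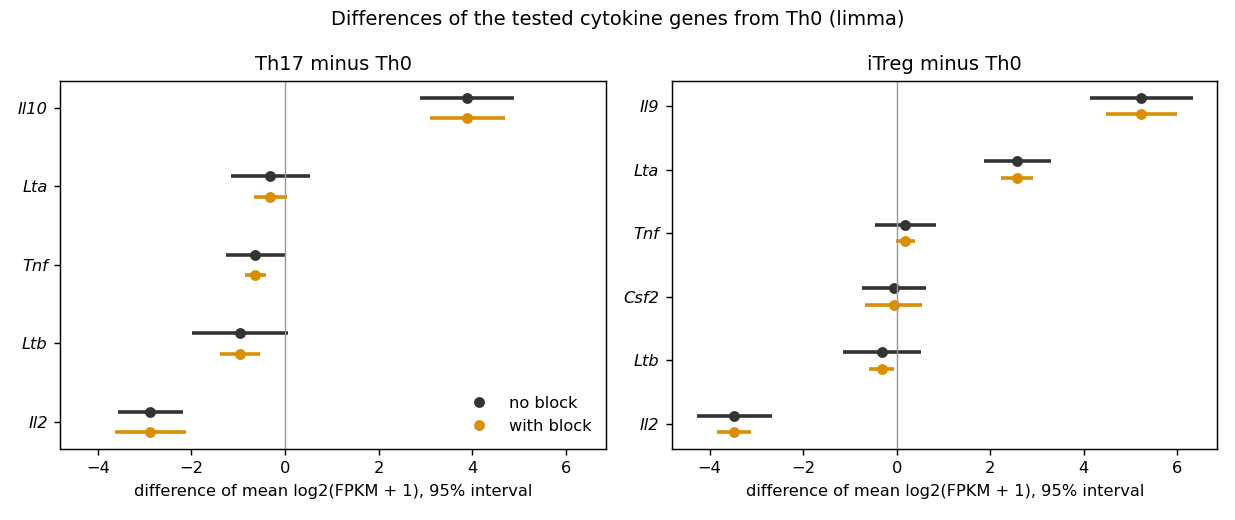
Difference of mean log2(FPKM + 1) from Th0 for the tested cytokine genes, Th17 minus Th0 on the left and iTreg minus Th0 on the right, with 95% intervals from limma without a block (black) and with the heading beginnings as a block (orange), n = 4 libraries per group. The intervals of Il10, Il9, Il2, and, in iTreg cells, Lta exclude 0 under both, and those of Tnf and Ltb in Th17 cells exclude it with the block.

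By mean FPKM in the Th0 libraries of the Th17 table the order was Ltb (149), Lta (51.1), Il2 (38.1), Tnf (32.3), and Il10 (1.18). Neighbours in this order overlapped between libraries except Tnf and Il10. In Th17 cells it was Ltb (83.4), Lta (40.1), Il10 (27.3), Tnf (19.9), and Il2 (4.05), where only Tnf and Il2 did not overlap. In iTreg cells the order was Lta (290), Ltb (123), Il9 (50.3), Tnf (35.6), Il2 (2.43), Csf2 (1.57), and Ifng (1.16). Lta and Ltb did not overlap there, nor did Tnf and Il2, while the other neighbours did. By mean level per length Il2 was above Tnf in Th0 cells, where their libraries overlapped, and below Tnf without overlap in both polarized groups.

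The genes whose log2(FPKM + 1) followed each cytokine gene most closely over the 8 libraries of a table were also read out. The libraries fall into 2 groups, which alone raises such correlations, and no test was made. In the Th17 table these were Psme1 and Tmem38b for Il2 (Pearson r 0.992 and 0.989), Rbms2 and Mtss1 for Il10 (both 0.994), Rgs3 and Spred1 for Tnf (0.963 and 0.951), Scd2 and Gpr89 for Lta (both 0.925), and Ptprc and Trim14 for Ltb (0.985 and 0.984). In the iTreg table they were Kdm2b and Atmin for Il2 (0.994 and 0.991), Specc1 and Map1lc3a for Il9 (0.996 and 0.995), and Slc4a11 and Ppid for Lta (0.991 and 0.989). For Tnf they were 5730455P16Rik and Trmt10c (0.968 and 0.965), for Ltb Sppl3 and Pigv (0.979 and 0.978), and for Csf2 Taco1 and Rpp25l (0.962 and 0.906). No gene was among the closest pair in both tables.

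Genes of several receptors for these cytokines rose in both polarized cell types and none fell without the block. Of 17 receptor genes, 12 were tested in each table. In Th17 cells 5 rose and 0 fell (6 and 3 with the block), with a median log2 fold change of 0.27 against -0.00071 over all tested genes, of which 10.6% rose and 8.69% fell (19.2% and 18.6% with the block). Il4ra, the IL4 receptor chain, rose from 27.3 ± 11.1 to 112 ± 38.3 FPKM (SD, n = 4, log2 fold change 2.02, adjusted p = 0.0043, limma). Tnfrsf14, a receptor for lymphotoxin alpha, rose from 36.8 ± 11.6 to 108 ± 26.3 FPKM (1.56, adjusted p = 0.0041, limma). Il2rb, the IL2 receptor beta chain, rose from 84.2 ± 15.4 to 243 ± 46.8 FPKM (1.51, adjusted p = 6.8e-04, limma). In iTreg cells 3 rose and 0 fell (6 and 3 with the block), with a median of 0.46 against 0.011 over all tested genes, of which 8.36% rose and 8.21% fell (20.9% and 20.0% with the block). Il2ra, the alpha chain that makes the receptor bind IL2 tightly, rose from 133 ± 43.9 to 442 ± 112 FPKM (1.76, adjusted p = 0.0030, limma). Il2rb rose to 215 ± 47.7 FPKM (1.35, adjusted p = 0.0020, limma), and Ifngr2, the second chain of the IFNg receptor, from 12.4 ± 2.21 to 29.1 ± 4.73 FPKM (1.17, adjusted p = 0.0015, limma). Il2ra and Ifngr2 also rose in Th17 cells (1.104 and 1.125, adjusted p = 0.0295 and 0.00148, limma). Il2rb was raised and Il2 lowered in both comparisons, which share their Th0 libraries. Il2rg, the IL2 receptor gamma chain, was among the genes that fell with the block only. Its log2 fold change was -0.647 in Th17 and -0.489 in iTreg cells (adjusted p = 0.00145 and 0.00329 with the block, limma). Tnfrsf14, raised in Th17 cells, fell in iTreg cells with the block only (-0.40, adjusted p = 0.0305, limma).

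Of 34 transcription factors known to act on these cytokine genes, 30 were tested in the Th17 and 29 in the iTreg comparison. In Th17 cells 14 rose and 5 fell (17 and 7 with the block, median log2 fold change 0.58), where 10.6% and 8.69% of all tested genes did (19.2% and 18.6% with the block). Maf, an activator of Il10, rose from 5.52 ± 5.21 to 234 ± 22.9 FPKM (SD, n = 4, log2 fold change 5.46, adjusted p = 7.0e-05, limma). Ahr, a ligand-activated factor of Th17 cells, rose from 1.36 ± 0.526 to 66.7 ± 11.8 FPKM (4.86, adjusted p = 1.7e-06, limma). Ikzf3, of the Ikaros family, rose from 17.6 ± 10.3 to 145 ± 35.5 FPKM (3.09, adjusted p = 4.0e-04, limma). In iTreg cells 9 rose and 8 fell (11 and 10 with the block, median 0.20), where 8.36% and 8.21% of all tested genes did (20.9% and 20.0% with the block). Maf rose to 95.5 ± 16.7 FPKM (4.18, adjusted p = 4.1e-04, limma) and Ahr to 9.52 ± 1.98 FPKM (2.18, adjusted p = 1.6e-04, limma). Stat4, which transmits the IL12 signal in Th1 cells, fell from 19.2 ± 3.97 to 3.97 ± 0.769 FPKM (-2.01, adjusted p = 1.4e-04, limma). It also fell in Th17 cells, from 19.4 ± 4.03 to 3.14 ± 0.529 FPKM (-2.29, adjusted p = 4.3e-05, limma).

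Of 36 other cytokine, chemokine, and TNF superfamily genes, 21 were tested in the Th17 and 22 in the iTreg comparison. In Th17 cells 1 rose and 10 fell (4 and 11 with the block), with a median log2 fold change of -0.96. Of all tested genes 10.6% rose and 8.69% fell, and 19.2% and 18.6% with the block, so that the share raised was near the background there. Il21, a cytokine of Th17 and follicular helper cells, was at 0.109 ± 0.0463 FPKM in Th0 and 74.1 ± 13.5 FPKM in Th17 cells (SD, n = 4, log2 fold change 6.07, adjusted p = 8.2e-08, limma). It passed the filter on low values only through its Th17 libraries, and its fold change depends on the pseudocount. Tnfsf11, which encodes RANKL, fell from 21.96 ± 15.3 to 0.446 ± 0.349 FPKM (-3.80, adjusted p = 3.0e-04, limma), and had passed the filter only through its Th0 libraries. Tnfsf8, the CD30 ligand, fell from 104 ± 34.0 to 11.3 ± 7.46 FPKM (-3.21, adjusted p = 0.0011, limma). In iTreg cells 4 rose and 4 fell (5 and 10 with the block), with a median of -0.14, against 8.36% and 8.21% of all tested genes (20.9% and 20.0% with the block). The chemokine genes Xcl1 and Ccl20 rose from 16.8 ± 19.9 to 138 ± 132 FPKM (3.25, adjusted p = 0.034, limma) and from 2.42 ± 1.86 to 28.3 ± 22.6 FPKM (2.92, adjusted p = 0.010, limma). Tnfsf4, the OX40 ligand, fell from 58.0 ± 18.2 to 22.7 ± 11.1 FPKM (-1.38, adjusted p = 0.028, limma). Tnfsf4 fell in Th17 cells too (-2.75, adjusted p = 1.7e-04, limma), as did Tnfsf8 in iTreg cells (-1.07, adjusted p = 0.022, limma). The spread of Xcl1 and Ccl20 between iTreg libraries was nearly as large as their means.

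Lists of genes known from the IFNg response and from the Th2 response were read as well. A place in a list does not show which signal changed a gene, and the cause was not tested. Of 17 genes of the IFNg response, 15 were tested in each comparison. In Th17 cells, cultured with antibodies to IFNg, 2 rose and 6 fell (4 and 7 with the block, median log2 fold change -0.49), against 10.6% and 8.69% of all tested genes (19.2% and 18.6% with the block). The guanylate-binding protein genes Gbp4 and Gbp7 fell, by 1.83 and 1.47 on the log2 scale (adjusted p = 3.1e-04 and 0.0037, limma), while Socs1, an inhibitor of cytokine signals, rose by 1.72 (adjusted p = 6.0e-04, limma). In iTreg cells 3 rose and 3 fell (3 and 5 with the block, median 0.11), against 8.36% and 8.21% of all tested genes. With the block these shares were 20.9% and 20.0%, and the share of IFNg response genes raised was near them. Irgm1 and Socs1 rose by 1.37 and 1.29 on the log2 scale and Gbp7 fell by 1.25 (adjusted p = 0.0093, 0.0019, and 0.017, limma). Of 9 genes of the Th2 response, 5 were tested in each comparison. In Th17 cells 2 rose and 1 fell (2 and 3 with the block, median -1.04), against the same 10.6% and 8.69% (19.2% and 18.6% with the block). Gata3, the lineage factor of Th2 cells, fell from 12.2 ± 2.91 to 2.40 ± 0.674 FPKM (SD, n = 4, -1.96, adjusted p = 2.5e-04, limma), while Il4ra and the chemokine receptor gene Ccr8 rose (2.02 and 1.45, adjusted p = 0.0043 and 0.032, limma). In iTreg cells 2 rose and 0 fell (4 and 1 with the block, median 1.02), against 8.36% and 8.21% (20.9% and 20.0% with the block), and the share lowered with the block was at the background. Ccr8 rose from 16.9 ± 8.92 to 311 ± 95.8 FPKM (4.18, adjusted p = 1.6e-04, limma), and Cish, a gene induced by IL2 and other signals through STAT5, rose from 61.0 ± 22.6 to 215 ± 12.3 FPKM (1.90, adjusted p = 0.0030, limma).

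**Figure D4:**
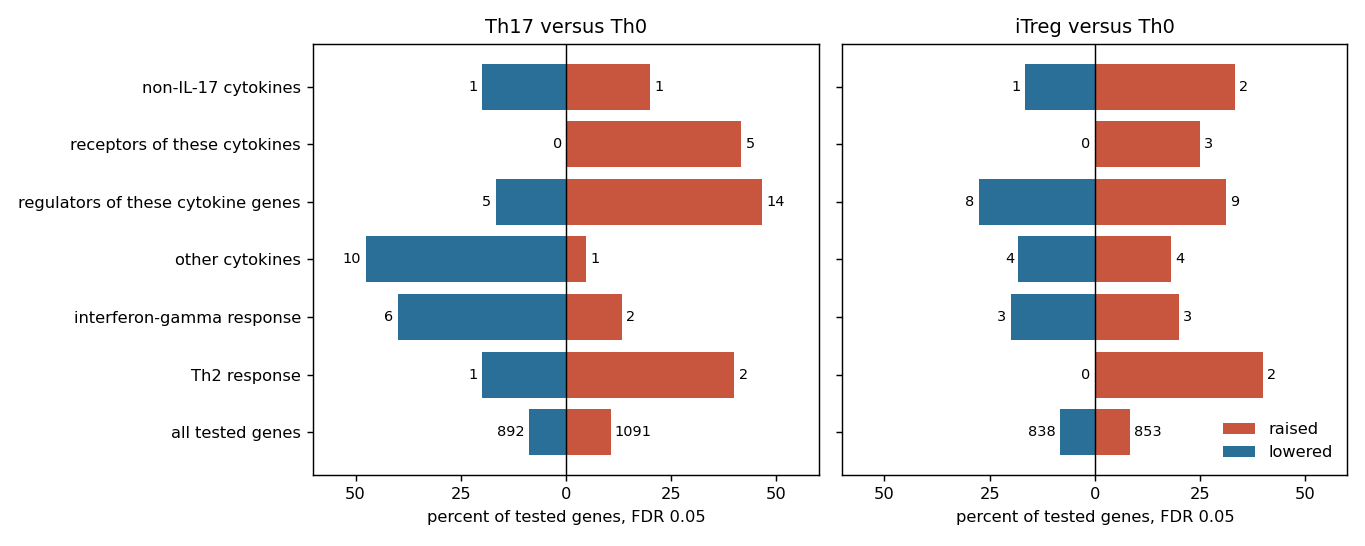
Percent of the tested genes of each list that were raised (red, to the right) or lowered (blue, to the left) at an FDR of 0.05 in limma without a block, in Th17 (left) and iTreg (right) cells against Th0 cells. Numbers at the bars are genes. In Th17 cells 10 of the other cytokine genes were lowered and 1 raised, while in iTreg cells 4 moved each way.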

How the data were processed

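The 12 RNA samples were grouped by their labels into Th0, Th17, and iTreg (n = 4 each, separate cultures by the labels). According to the methods, the authors aligned paired reads with TopHat 2.0.14 to mm10, assigned them to exons with HTSeq-count, ignoring strand, and removed genes without more than 1 CPM in at least 4 samples. The deposited values used here are FPKM, scaled by the authors in a separate table for each comparison. The sources used here do not say how FPKM was calculated. As the Th0 libraries differ between the tables by a constant factor of 1.009 to 1.012, tests stayed within a table, and Th17 was not tested against iTreg. The tables also hold log2 fold changes, average abundance, test statistics, p-values, and FDR of the authors' own comparison, which were not used.

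A gene was tested where at least 4 of 8 libraries exceeded 1 FPKM. Tests were made on log2(FPKM + 1), which understates changes of low genes, with limma 3.58.1 in R 4.3.3 and Benjamini-Hochberg adjustment at an FDR of 0.05. Exact two-sided permutation tests of 4 against 4 libraries cannot go below p = 0.029. The limma steps were tested on simulated data. Total counts are not in the tables. Relative depth and fragments per gene were read from the steps of the FPKM values, as the smallest whole numbers in ratio, and intervals from them cover counting error only. Relative depth is thus the library size used in the scaling, which need not equal the number of reads sequenced.

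The headings carry no experiment number, but libraries with the same beginning deviated together from their group means (Pearson r over the tested genes from 0.450 to 0.784 for Th17 with Th0 and from 0.662 to 0.769 for iTreg with Th0). Between libraries with different beginnings, r was from -0.59 to 0.434 for Th17 with Th0 and from -0.576 to 0.248 for iTreg with Th0. Such libraries were therefore treated as paired in a fit with the beginning as a block, printed where it changes a result. According to the methods, the authors' own tests of the RNA data used a paired design. The block is the fit made here that follows such a design, though the headings do not state the authors' pairs. Calls given without mention of the block come from the fit that ignores the beginnings and calls fewer genes. Every library value of the cytokine genes is reported from each table that lists the gene. From each gene list, the counts are given for both fits. Up to 3 genes per comparison are named that were called without the block, with the largest changes and no overlap between groups. For each tested cytokine gene, the 2 genes closest by Pearson correlation are named. The cytokine genes and lists were chosen with earlier results of these data known. Alternatives were a pseudocount of 0.1, no filter, an FDR of 0.01, a common median, limma with trend, the block, and each library left out. Tallies, exact tests, and plots used Python 3.11.15 and its packages scipy 1.17.1, matplotlib 3.10.9, numpy 2.4.6, and pandas 2.3.3.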

Additional observations from a re-analysis of the deposited data

Results flagged for a closer look

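On log2(FPKM + 1), a single library stood far from the other 3 in 3 of 20 sets of a gene and 4 libraries. In these sets the Th0 libraries of both tables count once. Chance gives about 1 in 20. Ltb in the Th0 library M42 was at 85.6 FPKM in the Th17 table, against 165 to 172 FPKM in the other Th0 libraries, and the same library gives 84.6 FPKM against 163 to 171 FPKM in the iTreg table. Il2 in the Th17 library M29 was at 5.82 FPKM, against 3.37 to 3.64 FPKM in the other Th17 libraries. Il9 in the Th0 library M43 was at 0.790 FPKM, while it was listed at 0 in the other Th0 libraries. With 3 values at 0, any other value would have stood apart in this way, and this one rests on 4 fragments. Il10 in the Th0 library M29, at 3.71 FPKM against 0.164 to 0.613 FPKM in the other Th0 libraries, was not flagged on this log2 scale.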

How the results depend on the processing

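The calls of Il2 in both comparisons, Il10 in Th17 cells, and Il9 and Lta in iTreg cells kept their direction and their side of the threshold under all 14 alternatives tried. With the replicate block, the genes called rose from 1983 to 3882 in the Th17 and from 1691 to 4170 in the iTreg comparison, and the cytokine genes called in Th17 cells from 2 to 4, by Tnf and Ltb. The block changed no other call of a cytokine gene. An FDR of 0.01 left 995 and 778 genes. Without each library in turn, 1364 to 2237 genes were called in the Th17 and 1140 to 1521 in the iTreg comparison, with 2 and 3 cytokine genes throughout. With the block and both libraries of a beginning left out, an alternative chosen after seeing the data, 2578 to 3585 genes and 4 cytokine genes were called in Th17 cells. In iTreg cells this gave 2892, 3748, 3022, and 3258 genes without M22, M29, M42, and M43, and 3 to 5 cytokine genes, 5 without M29. Uncalled differences in iTreg cells spanned 0 when a library was left out, from -0.01224 (without the Th0 library M22) to 0.3618 for Tnf, from -0.5577 to 0.01772 (without the iTreg library M42) for Ltb, and from -0.2957 to 0.1494 (without the Th0 library M22) for Csf2, which was also above 0 without the iTreg library M22 (0.09) or M29 (0.02). With the block and without M22 in both groups, Csf2 was at 0.3053. The cause was not tested. Ifng, Csf2, and the Th0 values of Il9 and Il10 rest on few fragments, so that differences in them within their counting intervals were not detectable at this depth.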
